A study of Danio rerio with 12 samples.

Results

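TCDD and DMSO embryos were compared at 60 hours post fertilisation (hpf) on the small RNA counts of 6 libraries, 3 from each treatment, out of 12 in the series. The comparison covered every microRNA (miRNA) in the count tables, and its libraries were chosen by their labels alone. Embryos of the zebrafish TL wild type strain were used whole, with no transgene, sort or dissection. The TCDD group had been exposed to TCDD, a chlorinated dioxin, and the DMSO group to the solvent. The labels used here give neither the dose nor the hours of exposure, and they do not say whether a replicate is a separate clutch or pool, so the p-values measure the spread between these libraries, which may be technical. The other 6 libraries, 3 TCDD and 3 DMSO from embryos of 36 hpf, entered the fits to help estimate the spread.

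TCDD is a stable ligand of the aryl hydrocarbon receptor, and in zebrafish embryos it is known for defects of the heart, the vessels, the jaw cartilage and the circulation of red cells. A miRNA is cut from a hairpin whose arms each give a short RNA. Usually 1 arm is loaded into Argonaute and represses mRNAs that match its seed, while the opposite arm is mostly degraded and is less abundant. Arms with a star after the name in the deposited tables are here called star arms and those without it major arms, whichever was more abundant. Many vertebrate miRNAs lie in clusters that are transcribed together, and many mark a tissue, so their levels in a whole embryo reflect both how much of a tissue there is and how active its genes are. Fewer cells of a type and less RNA per cell cannot be told apart in such samples.

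The tables held 699 rows of miRNAs. Copies of the same mature name and arm whose totals reached 80% of the leading copy's were counted once, by the most abundant copy. Copies with lower totals stayed separate, so some mature names, such as miR-15a and miR-7a, count more than once. This left 464 miRNA arms, of which 257 were star arms and 207 major arms. Of these, 410 had enough counts to be tested (216 star and 194 major arms) and 54 did not. Levels are in CPM, which divides an arm's counts by the TMM-adjusted library total, always in the order of replicates 1, 2 and 3. The 6 libraries held between 2007639 and 4210840 miRNA counts. Replicate DMSO libraries correlated at 0.958 to 0.971 in log2 CPM and TCDD libraries at 0.903 to 0.925. Some arms were nearly lost from a single library. In TCDD replicate 3, 18 arms lay at least 4-fold below every other library, among them miR-19a, miR-19b, miR-19d, miR-93, miR-126a, miR-126b, miR-184, miR-217 and all 5 star arms of the miR-196 family. In TCDD replicate 2 this held for 10 arms, among them miR-20a, miR-18a, miR-18b, miR-124 and miR-210, and in TCDD replicate 1 for 4, miR-27b, miR-27c, let-7h and miR-125b-3*. The DMSO libraries had 5, 2 and 6 such arms. For some of these arms the log2 fold change is given with and without that library, and for others only the values of each library are given or none. Markers of several tissues of a whole embryo were present, as muscle miR-206, epidermal miR-203b, lens and retinal miR-204, erythroid miR-451 and myeloid miR-223 had DMSO means from 3406 to 56732 CPM.

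The 1 miRNA that passed edgeR's quasi-likelihood test at 60 hpf was miR-27e, which was higher in TCDD embryos. The miR-27 family is made together with miR-23 and miR-24 from short clusters, and in zebrafish and mouse it is known for its part in vessel growth. miR-27e stood at 27.1, 29.9 and 26.9 CPM in the DMSO libraries and 149.7, 137 and 115 CPM in the TCDD libraries. All 3 TCDD libraries were high by a similar amount, and the groups were far apart. Group means ± SD over 3 libraries each were 28 ± 1.65 CPM for DMSO and 134 ± 17.7 CPM for TCDD, a 4.78-fold difference on the fitted scale (log2 fold change 2.26, SE 0.34, edgeR adjusted p = 0.0152). It was the 1 call (adjusted p under 0.05) among 410 arms, a share of 0.244%. Leaving out 1 library left the log2 fold change between 2.17 and 2.36, but the adjusted p then ran from 0.0388 to 0.148, and the call held without TCDD replicate 3 and ended without any of the other 5. Fitted without the libraries of 36 hpf, miR-27e had an adjusted p of 0.0525.

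The star arm of the same hairpin was less separated. miR-27e* stood at 8.38, 10.6 and 7.78 CPM in DMSO and 8.23, 17.8 and 30.0 CPM in TCDD, so that replicate 1 of the TCDD group lay among the DMSO libraries (log2 fold change 1.07, SE 0.45, edgeR adjusted p = 0.656). The star arm held 23.6, 26.2 and 22.4% in the DMSO libraries and 5.21, 11.5 and 20.7% in the TCDD libraries of the hairpin's counts. It was thus a smaller part of the hairpin in every TCDD library than in any DMSO library (log2 change of the star to major ratio -1.35 (SE 0.72), edgeR adjusted p = 0.766), and 5 of 172 hairpins (2.91%) showed this direction without overlap.

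The other members of the miR-27 family did not pass the test. miR-27a stood at 24.9, 23.2 and 15.6 CPM in DMSO and 23.9, 31.2 and 26 CPM in TCDD (log2 fold change 0.35, SE 0.43), and miR-27d at 40.8, 34.2 and 49.9 CPM in DMSO and 37.8, 44.6 and 42.2 CPM in TCDD (log2 fold change 0.00, SE 0.32). Both kept to a narrow range, and their groups overlapped. miR-27b and miR-27c stood apart by library and not by treatment. miR-27c was at 39.7, 134 and 103 CPM in DMSO and 2.57, 248 and 256 CPM in TCDD, and miR-27b at 131, 39.7 and 135 CPM in DMSO and 2.83, 163 and 120.3 CPM in TCDD, both nearly missing from TCDD replicate 1. Without that library their log2 fold changes were 1.44 and 0.48, against 0.87 and -0.09 with it. In TCDD replicate 1 miR-27e itself was at its highest, and on the TMM scale the sum over the family lay below every DMSO library. Near-identical paralogs may share reads, and how reads were divided among them was not tested.

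In the reference annotation the hairpins nearest to miR-27e are miR-23a-1 and miR-24-4, within 10000 bases of it. miR-23a, the major arm that the 3 miR-23a hairpins share, stood at 922, 943 and 1072 CPM in the DMSO libraries and 1297, 1357 and 1605 CPM in the TCDD libraries (log2 fold change 0.54, SE 0.24, edgeR adjusted p = 0.694). Every TCDD library lay above every DMSO library, but by far less than for miR-27e. These values are of the row of miR-23a-1, the most abundant by total. The rows of miR-23a-2 and miR-23a-3 rose less. Before TMM scaling miR-23a-2 was at 938.9, 1117 and 1099 CPM in DMSO and 1243, 1444 and 1703 CPM in TCDD. After that scaling DMSO replicate 3 lay above TCDD replicate 1 in both rows, so their groups overlapped. The star arms miR-23a-1* and miR-23a-2* were also higher in each TCDD library, at 3.91, 1.57 and 2.92 CPM in DMSO and 6.17, 5.67 and 5.35 CPM in TCDD for the first (log2 fold change 1.0, SE 0.42) and with a log2 fold change of 0.52 (SE 0.32) for the second. miR-24, shared by 4 hairpins, stood at 537, 488 and 539 CPM in DMSO and 516, 585 and 711 CPM in TCDD (log2 fold change 0.21, SE 0.23), and its groups overlapped. Its star arms can be told apart by hairpin. miR-24-4*, next to miR-27e, was at 7.54, 17.3 and 14.3 CPM in DMSO and 39.6, 44.6 and 2.29 CPM in TCDD, and miR-24-2*, from the hairpin beside miR-27c, at 1.40, 7.46 and 1.30 CPM in DMSO and 28, 12.6 and 10.5 CPM in TCDD. The latter had the largest value of any tested star arm (log2 fold change 2.36, SE 0.78) without passing the test (edgeR adjusted p = 0.434). Of the 20 tested arms of the miR-23, miR-24 and miR-27 clusters 17 had a positive value, and 5 lay higher in every TCDD library, against 44 of all 410 arms (10.7%). The median of the 20 was 0.39, where the median of all arms was 0.00, and 1 was called.

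**Figure D1:**
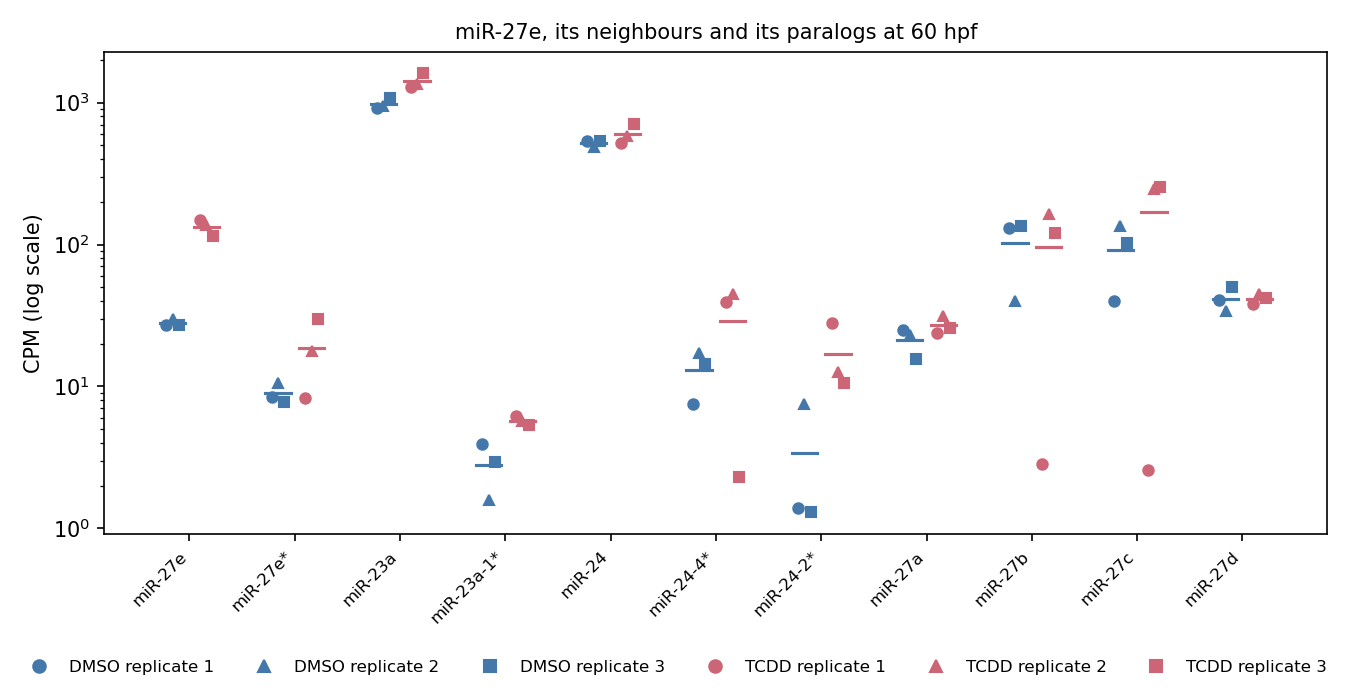
CPM (log axis) of miR-27e, its star arm, its neighbours miR-23a and miR-24 with star arms, and the 4 other miR-27 miRNAs in each 60 hpf library; marker shape gives the replicate and a bar the group mean. In miR-27e the groups are separated by several-fold, while miR-27b and miR-27c are nearly missing from TCDD replicate 1.

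Across all 410 arms the distribution of log2 fold changes was centred on 0, with 205 arms (50.0%) above 0 and a median size of 0.36. Beside miR-27e no arm passed edgeR's quasi-likelihood test. At an unadjusted p under 0.05 there were 28 arms (6.83%), 11 higher (2.68%) and 17 lower (4.15%) in TCDD embryos. DESeq2 called 10 arms (2.44%). Higher were 4 (0.976%), miR-27e, miR-1388, miR-489 and miR-454b, and lower were 6 (1.46%), miR-216b, miR-19c, miR-153b, miR-153c, miR-723* and miR-142a. The exact and the likelihood ratio test of edgeR both called 5 arms (1.22%), of which 2 were higher (0.488%) and 3 lower (0.732%), and limma-voom called miR-27e alone. In 88 arms (21.5%) the 3 TCDD libraries did not overlap the 3 DMSO libraries, 44 in each direction (10.7% each). Upper quartile and total count scaling moved the median of all arms from 0.00 to 0.26 and 0.31, so smaller values have a meaning only relative to that median. Counts of arms and family sums without overlap, here and below, were taken on the TMM scale alone.

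**Figure D2:**
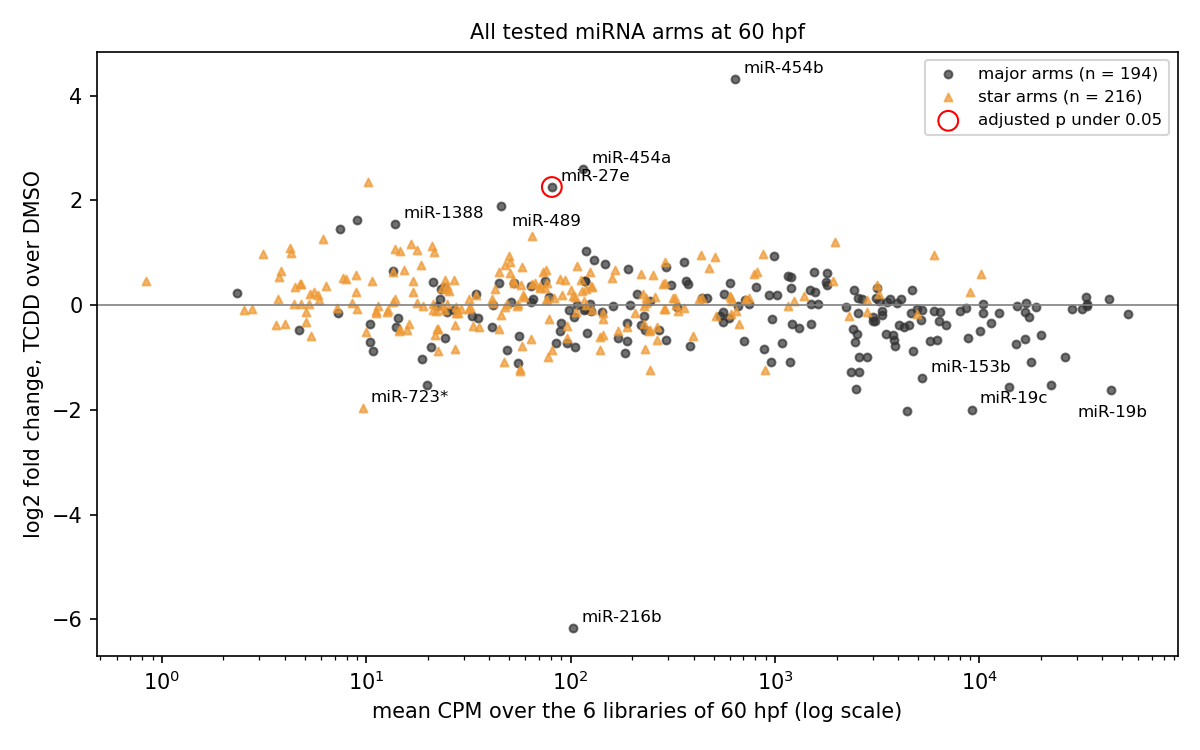
Log2 fold change of TCDD over DMSO for each of the 410 tested arms against its mean CPM over the 6 libraries (log axis), with circles for 194 major and triangles for 216 star arms. miR-27e, ringed, is the 1 arm past the threshold, and the abundant major arms at the right lie mostly below 0 on the TMM scale.

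Lower values in TCDD embryos, without a call, were seen in the abundant miR-19 family. miR-19 belongs to the miR-17-92 type clusters. miR-19c stood at 18074, 14264 and 11565 CPM in the DMSO libraries and 4701, 4329 and 1974 CPM in the TCDD libraries (log2 fold change -2.0, SE 0.48, edgeR adjusted p = 0.174). miR-19b, the second most abundant miRNA of these libraries, was at 78008, 68111 and 52709.6 CPM in DMSO and 26367, 36634 and 1843 CPM in TCDD (log2 fold change -1.62, SE 0.74). miR-19a stood at 16645, 26605 and 19279.8 CPM in DMSO and 8733, 10873 and 1480.5 CPM in TCDD (log2 fold change -1.57, SE 0.57), and miR-19d at 7817, 6633 and 6867 CPM in DMSO and 2802, 2312 and 158 CPM in TCDD (log2 fold change -2.02, SE 0.74). In all 4 every TCDD library was below every DMSO library, and TCDD replicate 3 was the lowest by far in miR-19a, miR-19b and miR-19d. Of all major arms 14.9% lay lower without overlap, as did 19 of the 92 with a mean of 1000 CPM or more, which include these 4. Without that library the log2 fold changes of miR-19a, miR-19b, miR-19c and miR-19d were -1.09, -1.07, -1.69 and -1.47, and that of the family sum was -1.57 with it and -1.10 without it. Together the 4 major arms took 11.5, 12.4 and 8.65% of all miRNA counts in the DMSO libraries and 5.16, 6.66 and 0.678% in the TCDD libraries. These near-identical paralogs may share reads, and their sum was tested as 1 family (edgeR adjusted p = 0.594). The star arms had smaller values: miR-19a* was at 0.51 (SE 0.60), miR-19b* at -0.49 (SE 0.35), miR-19c* at -0.09 (SE 0.42) and miR-19d* at -0.48 (SE 0.68), each with overlapping groups.

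The cluster mates of miR-19, which in vertebrates promote proliferation and come from the same transcripts, varied between libraries and did not share a direction. miR-20a was at 35678, 34380.4 and 29135 CPM in DMSO and 19865, 2139 and 12550.5 CPM in TCDD (log2 fold change -1.52, SE 1.23) and its star arm at 1279, 1208 and 1287 CPM in DMSO and 329, 461 and 812 CPM in TCDD (log2 fold change -1.24, SE 0.86). Both arms lay lower in every TCDD library, with TCDD replicate 2 at the bottom for the major arm, which was at -0.99 without that library. miR-18a stood at 10582, 6640.0 and 3885 CPM in DMSO and 2985, 174 and 10046 CPM in TCDD, and miR-93 at 4329, 3815 and 1834 CPM in DMSO and 3990.2, 132 and 13.9 CPM in TCDD. The spread within the TCDD group covered more than an order of magnitude in both. miR-17a (-0.10 (SE 0.63)), miR-20b (-0.28 (SE 0.37)) and miR-92a (0.30 (SE 0.59)) overlapped between the groups, and miR-25, the neighbour of miR-19d and miR-93, was at 1668, 1336 and 1652 CPM in DMSO and 1900.3, 2097 and 2077 CPM in TCDD (log2 fold change 0.38, SE 0.37), higher in every TCDD library. Of the 32 tested arms of these clusters 23 had negative values, 7 lay lower in every TCDD library and 2 higher, against 10.7% of all arms in each direction, and 0 were called. Their median was -0.20, which became 0.05 and 0.09 under upper quartile and total count scaling, where all arms had medians of 0.26 and 0.31.

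**Figure D3:**
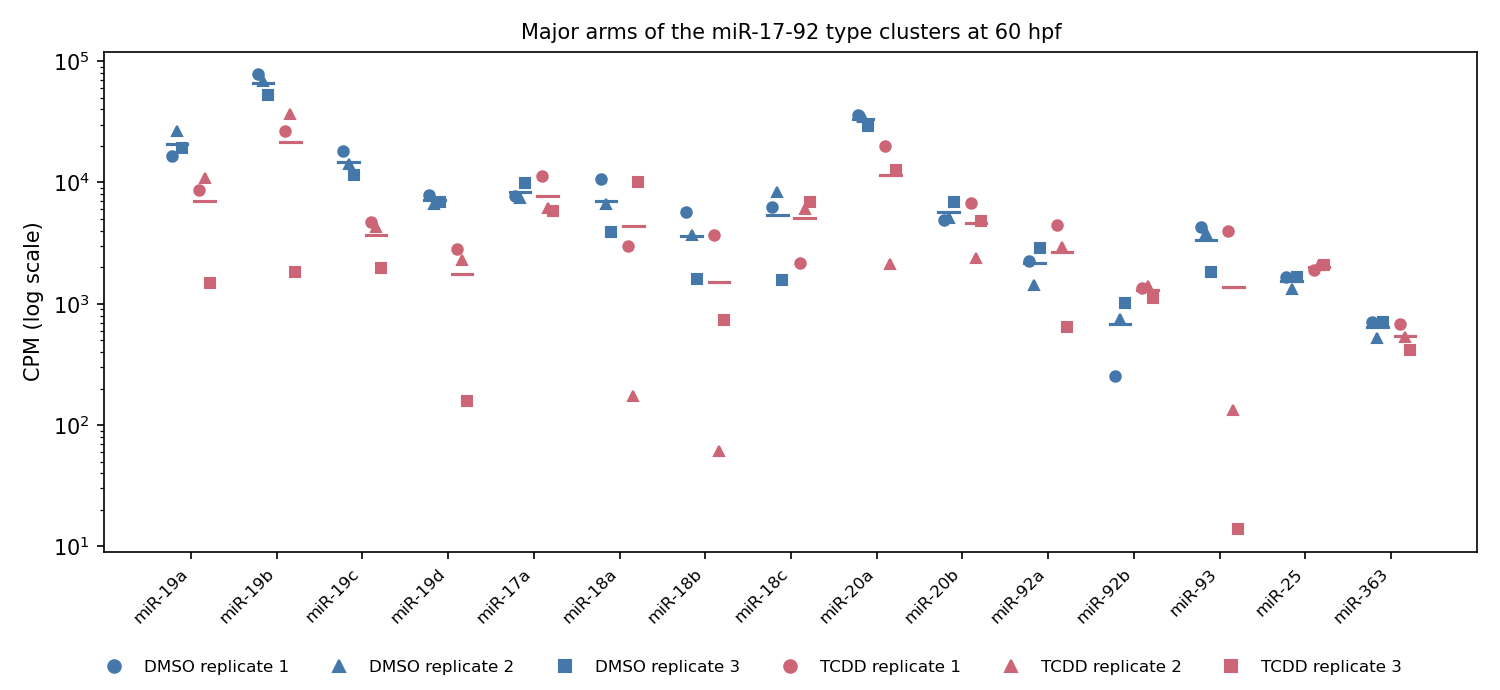
CPM (log axis) of the 15 major arms of the miR-17-92 type clusters in each 60 hpf library; marker shape gives the replicate and a bar the group mean. The 4 miR-19 arms are lower in all TCDD libraries, while miR-18a, miR-18b and miR-20a are lowest in TCDD replicate 2 and miR-93 is low in replicates 2 and 3.

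Among brain miRNAs, the miR-153 family, which is neuronal and in zebrafish represses the synaptic gene snap25, had low TCDD values in all 3 major arms. miR-153b stood at 7791, 8221 and 6873 CPM in the DMSO libraries and 2242, 3234 and 3219 CPM in the TCDD libraries (log2 fold change -1.40, SE 0.37, edgeR adjusted p = 0.207). miR-153c was at 3670.1, 4334 and 3287 CPM in DMSO and 1110.4, 1905 and 698 CPM in TCDD (log2 fold change -1.60, SE 0.42), and miR-153a at 1355, 2113 and 1380.1 CPM in DMSO and 626, 1132 and 530.1 CPM in TCDD (log2 fold change -1.08, SE 0.35). No TCDD library reached a DMSO library in any of them on the TMM scale. Without that scaling the groups of miR-153a overlap. With any 1 library left out, the log2 fold change stayed between -1.47 and -1.24 for miR-153b, between -2.02 and -1.32 for miR-153c and between -1.47 and -0.82 for miR-153a. The family sum stood at 11672, 14090.3 and 10944 CPM in DMSO and 3933, 6468 and 4255 CPM in TCDD (log2 fold change -1.32, SE 0.36), with an adjusted p of 0.344 by edgeR and 0.0147 by DESeq2. The groups overlapped in the star arms, miR-153a* being at -0.42, miR-153b* at 0.41 and miR-153c* at 0.48. Other neural miRNAs were near 0 or scattered. miR-218a, of motor neurons, was at -0.34 (SE 0.32), miR-138 at -0.05 (SE 0.69) and miR-128 at 0.12 (SE 0.31). miR-124, the general neuronal miRNA, was at 1761, 1331 and 1957 CPM in DMSO and 1783, 20.7 and 2120.2 CPM in TCDD, with TCDD replicate 2 nearly empty (log2 fold change -0.36 with it and 0.25 without it). Of 36 tested neural arms 20 were positive, 3 lay higher and 5 lower without overlap (10.7% of all arms in each direction), 0 were called and the median was 0.06, against 0.00 over all arms.

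Among sensory and endocrine miRNAs, 2 abundant major arms were low with little spread. miR-181a, found in retina and in lymphoid cells, stood at 22831, 22122 and 27828 CPM in the DMSO libraries and 12499.5, 11742 and 10092 CPM in the TCDD libraries (log2 fold change -1.08, SE 0.39, edgeR adjusted p = 0.521). miR-7a-1, of endocrine pancreas and neurons, was at 1448, 1133 and 1292 CPM in DMSO and 659, 568 and 608 CPM in TCDD (log2 fold change -1.08, SE 0.37). In both, the TCDD libraries lay close together and well below the DMSO libraries. miR-7a-3, a hairpin copy of the same mature name kept as a separate row, was at 230.0, 222 and 168 CPM in DMSO and 134, 127 and 141 CPM in TCDD (log2 fold change -0.63, SE 0.29). It had the same order on the TMM scale, but without that scaling its groups overlap. The paralog miR-7b overlapped (-0.68 (SE 0.44)). miR-181b (-0.10 (SE 0.98)) and miR-181c (0.05 (SE 1.20)) did not follow miR-181a, each being high in DMSO replicate 3 and low in TCDD replicate 3. The miR-183, miR-96 and miR-182 cluster of hair cells and photoreceptors was at -0.14, -0.45 and -0.38, and miR-204 at 0.17 (SE 0.24). Of 18 tested sensory and retinal arms 11 were positive (median 0.08), 0 lay higher and 2 lower without overlap (all arms 10.7% each way), and 0 were called. Of 15 pancreatic and endocrine arms 7 were positive, with 1 higher and 4 lower without overlap (all arms 10.7% each way) and 0 called, and their median of -0.09 became 0.17 and 0.22 under upper quartile and total count scaling. Islet miR-375 was at 24.9, 47.1 and 162 CPM in DMSO and 194, 213 and 72 CPM in TCDD (log2 fold change 1.03, SE 0.74).

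Blood miRNAs had mostly lower values in TCDD embryos, without a call. miR-451 and miR-144 come from the same erythroid transcript, and miR-451 is needed for red cell maturation in zebrafish. miR-451 stood at 3646, 3022 and 3551 CPM in the DMSO libraries and 1667, 2645 and 842 CPM in the TCDD libraries (log2 fold change -0.99, SE 0.69), and miR-451* at 329, 330.4 and 376 CPM in DMSO and 94.7, 172 and 170.0 CPM in TCDD (log2 fold change -1.25, SE 0.56, edgeR adjusted p = 0.694). Both arms were lower in each TCDD library on the TMM scale. miR-144* had the same order, at 419.7, 499 and 506 CPM in DMSO and 372, 306 and 269 CPM in TCDD (log2 fold change -0.59, SE 0.72), and miR-144 ranged so widely, at 396, 53.4 and 246 CPM in DMSO and 329, 10.9 and 95.1 CPM in TCDD, that its groups overlapped (log2 fold change -0.68, SE 1.53). All 4 erythroid arms were thus negative, with a median of -0.83 that stayed between -0.75 and -0.51 under the other scalings. On the TMM scale 3 lay lower without overlap, against 44 of 410 arms (10.7%). Without that scaling the groups of miR-451 and miR-144* overlap as well, and those of miR-451* do not.

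Leukocyte miRNAs were of low to middle abundance. miR-142a, a blood-wide miRNA needed for neutrophil maturation in zebrafish, was at 22.6, 31.8 and 21.4 CPM in the DMSO libraries and 10.8, 13.4 and 12.8 CPM in the TCDD libraries (log2 fold change -1.03, SE 0.30), and passed the test with DESeq2 (adjusted p = 0.0259) but not with edgeR (adjusted p = 0.299). miR-146a, which restrains NF-kB signalling in mammals, was at 56.7, 106 and 63.9 CPM in DMSO and 27, 43 and 35.3 CPM in TCDD (log2 fold change -1.10, SE 0.37). Both had TCDD values below every DMSO value. Myeloid miR-223 was at 5533, 4193 and 3913 CPM in DMSO and 2250.4, 3577 and 4721 CPM in TCDD (log2 fold change -0.37, SE 0.41) and lymphoid miR-150 at 1031, 1125 and 1856 CPM in DMSO and 1474, 1509.6 and 1929 CPM in TCDD (log2 fold change 0.29, SE 0.40), with overlap in both. Of 11 tested leukocyte arms 9 were negative (median -0.37, and -0.07 and -0.06 under upper quartile and total count scaling), 3 lay lower without overlap, against 10.7% of all arms, and 0 were called.

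The other vessel miRNAs did not pass the test. Endothelial miR-126a was at 2245, 3258 and 5105 CPM in DMSO and 5119, 3985 and 211 CPM in TCDD and miR-126b at 3506, 3109 and 3620.3 CPM in DMSO and 4542, 3206 and 547 CPM in TCDD, both low in TCDD replicate 3 alone. Without it their log2 fold changes were 0.37 and 0.19, against -0.19 and -0.30 with it. miR-221, which in mammals represses the receptor KIT in endothelium, was at 778, 281 and 11664 CPM in DMSO and 4634, 6176 and 4694 CPM in TCDD, with DMSO replicates 1 and 2 far below the other 4 libraries (log2 fold change 0.29, SE 1.29). The smooth muscle miR-145 was at 6728, 6713 and 7672 CPM in DMSO and 4727, 5454 and 6884 CPM in TCDD (log2 fold change -0.31, SE 0.26) and miR-143, its partner, at 0.22 (SE 0.37). Of 9 endothelial arms 4 were positive, with 1 lower without overlap (10.7% of all arms), and the median of -0.02 turned to 0.01, 0.21 and 0.28 under RLE, upper quartile and total count scaling. Of 3 smooth muscle arms 1 was positive (median -0.31, and -0.03 and 0.00 under upper quartile and total count scaling). No arm of either list was called.

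Muscle and heart miRNAs did not separate. miR-206, of fast muscle, was at 40306, 33833 and 25532 CPM in DMSO and 26615, 40570.5 and 34219.9 CPM in TCDD (log2 fold change 0.02, SE 0.48), miR-1 at 13913, 11688 and 9817 CPM in DMSO and 5958, 9891 and 9429 CPM in TCDD (log2 fold change -0.49, SE 0.42) and miR-133b at 3730.1, 1733 and 2986 CPM in DMSO and 3316, 3891 and 3360.3 CPM in TCDD (log2 fold change 0.32, SE 0.40). Their groups overlapped throughout, and the ranges within a group were as wide as the differences. miR-499, encoded in a heart and slow muscle myosin gene, was at 0.42 (SE 0.47). Of 15 tested arms 8 were positive (median 0.02), 0 lay apart in either direction (all arms 10.7% each way) and 0 were called.

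Cartilage and mesenchyme miRNAs were mostly positive in value, in major and star arms. miR-140, which guides palate formation in zebrafish, was at 705, 2013 and 947 CPM in DMSO and 1946, 2006 and 1728 CPM in TCDD (log2 fold change 0.63, SE 0.65), and its star arm, the more abundant arm, at 7420.0, 7842 and 9287 CPM in DMSO and 9732, 8461 and 11052 CPM in TCDD (log2 fold change 0.25, SE 0.30). miR-199-2*, from the miR-199 and miR-214 genes of embryonic mesenchyme, was at 2516, 5085 and 4698 CPM in the DMSO libraries and 7861, 9268 and 6664 CPM in the TCDD libraries (log2 fold change 0.95, SE 0.82), while the other arm, miR-199, was at 4472, 5192 and 5052 CPM in DMSO and 3388, 3379 and 4219 CPM in TCDD (log2 fold change -0.42, SE 0.26). On the TMM scale these arms lay apart between the groups in opposite directions. Without that scaling the groups of miR-199 overlap. miR-199 is merged from 3 hairpin copies and miR-199-2* from 2. Their star to major ratio was 0.563, 0.979 and 0.930 in the DMSO libraries and 2.32, 2.74 and 1.58 in the TCDD libraries. miR-455 was at 67.9, 102 and 125 CPM in DMSO and 135, 137 and 135 CPM in TCDD (log2 fold change 0.47, SE 0.30), higher in each TCDD library, and miR-214 at -0.07 (SE 0.44). Of 11 tested arms 9 were positive (median 0.45, against 0.00 over all arms), 2 lay higher and 1 lower without overlap (all arms 10.7% each way), and 0 were called.

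In epithelia, the most abundant miRNA of all, epidermal miR-203b, was at 69016, 63145 and 38034 CPM in DMSO and 42654, 51896 and 56894 CPM in TCDD (log2 fold change -0.17, SE 0.27), and miR-205 at 41664, 18618 and 41561 CPM in DMSO and 27731, 38505 and 33912 CPM in TCDD (log2 fold change -0.02, SE 0.55). The groups overlapped, and the signs of both values changed with the scaling. The 6 epidermal arms had a median of -0.09, and 0.18 and 0.21 under upper quartile and total count scaling. The miR-200 family, which keeps cells epithelial by repressing zeb genes in mammals, split by arm. miR-141 was at 3350.4, 3586 and 4314 CPM in the DMSO libraries and 1009, 2025 and 2616 CPM in the TCDD libraries (log2 fold change -0.99, SE 0.40) and miR-141* at 42.5, 33.4 and 43.1 CPM in DMSO and 53.2, 79.4 and 50.6 CPM in TCDD (log2 fold change 0.62, SE 0.61). On the TMM scale the major arm lay lower and the star arm higher in each TCDD library. Without that scaling the groups of the major arm miR-141 overlap. On the TMM scale the major arm miR-200a was also lower in each TCDD library (-0.56 (SE 0.63)) and the star arm miR-200b* higher (0.74 (SE 0.68)). miR-429, the cluster mate of both, overlapped (0.61 (SE 0.50)). In this family the median was -0.61 over 6 major arms and 0.64 over 6 star arms, 3 arms lay higher and 2 lower without overlap, against 10.7% of all arms in each direction, and 0 were called.

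Gut and liver miRNAs were few, and none passed the test. Hepatocyte miR-122 was at 64.8, 525 and 378 CPM in DMSO and 882, 13 and 392 CPM in TCDD (log2 fold change 0.41, SE 1.21), with the lowest and the highest value both in the TCDD group. miR-192 was at 0.13 (SE 0.33), and its neighbour miR-194a, also of gut, at 55.6, 80.1 and 53.5 CPM in DMSO and 47.8, 27.6 and 29.4 CPM in TCDD (log2 fold change -0.85, SE 0.54). On the TMM scale miR-194a was lower in each TCDD library, but without that scaling its groups overlap. Of 8 arms in this list 5 were tested, 3 of them positive (median 0.13), and 0 were called.

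Families tied to timing and position of the embryo showed no call either. let-7, the regulator of developmental timing, had 20 tested arms of 25, of which 16 were positive with a median of 0.18, and let-7a, its most abundant member, was at 1132, 865 and 609 CPM in DMSO and 1037, 1099 and 851 CPM in TCDD (log2 fold change 0.20, SE 0.36). The groups overlapped in all 9 major arms. The star arms let-7c* (0.31 (SE 0.28)) and let-7d* (0.48) lay higher in each TCDD library, 2 of the 20 arms, against 10.7% of all arms. miR-430, which clears maternal mRNA, was low at this age: miR-430b was at 91.1, 128 and 171 CPM in DMSO and 179, 25.1 and 158 CPM in TCDD (log2 fold change -0.10, SE 0.63) and miR-430b*, its opposite arm, at -0.58 (SE 0.30). Of its 8 tested arms 3 were positive, and the median of -0.18 became 0.08 and 0.12 under upper quartile and total count scaling. miR-99, miR-100 and miR-125, which in vertebrates share clusters with let-7, had 11 of 15 arms positive (median 0.12), with miR-125b at -0.15 (SE 0.24) and miR-99 at 0.04 (SE 0.41).

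The miRNAs of the Hox clusters differed by library. miR-10a, miR-10b and miR-10d were at -0.56 (SE 0.44), -0.74 (SE 0.43) and -0.65 (SE 0.50), with TCDD replicate 2 the lowest library in each, and were at -0.12, -0.30 and -0.17 without it. miR-10c was at -0.07 (SE 0.25). The miR-196 star arms were nearly absent from TCDD replicate 3, where miR-196c* was at 0.573 CPM, against 43 and 56.7 CPM in the other TCDD libraries and 98.9, 75 and 65.5 CPM in DMSO. The 4 major arms of miR-196 kept to a narrow range, such as miR-196a at 386, 308 and 313 CPM in DMSO and 266, 349 and 361 CPM in TCDD. Of 17 arms 14 were negative (median -0.48, and -0.30 without TCDD replicate 3 and -0.27 without TCDD replicate 2), and 0 were called.

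Among broadly expressed families, miR-30 had 5 major arms with negative values, 4 of them lower in each TCDD library, against 14.9% of all major arms. miR-30c, the most abundant, was at 10435, 10351 and 11308 CPM in DMSO and 5636, 6711 and 8449 CPM in TCDD (log2 fold change -0.63, SE 0.32), and miR-30e at 7234, 8144 and 7356 CPM in DMSO and 3134, 4981 and 6285 CPM in TCDD (log2 fold change -0.66, SE 0.36). The order of both holds on the TMM scale. Without that scaling TCDD replicate 3 lay above DMSO replicate 1 in each, so their groups overlap. The median over the 5 was -0.63 and that over the 4 tested star arms 0.21. miR-26a, from introns of phosphatase genes, was at 0.01 (SE 0.41), while its star arm miR-26a-3* was at 45.5, 59.3 and 67.1 CPM in DMSO and 69.2, 98.9 and 99.5 CPM in TCDD (log2 fold change 0.64, SE 0.33) and miR-26b* at 10.6, 11.8 and 9.41 CPM in DMSO and 16.2, 13.8 and 19.3 CPM in TCDD (log2 fold change 0.63, SE 0.29). All 6 arms of miR-26 were positive (median 0.24, and 0.00 without TCDD replicate 3). In the miR-15 and miR-16 family, which restrains the cell cycle in mammals, miR-16c was at -0.23 (SE 0.38) and miR-457a at -0.14 (SE 0.25). Here 5 of 15 tested arms lay higher without overlap, against 10.7% of all arms and 14.4% of star arms, and 3 of the 5 were star arms, miR-15b* (0.83 (SE 0.67)), miR-16c* (0.68 (SE 0.40)) and miR-457a* (0.94 (SE 0.66)). The others were miR-15a-1 and miR-15a-2, copies of 1 mature name that were kept separate. The median of the 15 was 0.01, and 0 were called.

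Of the miRNAs tied to stress, miR-210, induced by hypoxia, was at 3866, 1765 and 3489 CPM in DMSO and 1894, 38.1 and 3691 CPM in TCDD, with TCDD replicate 2 nearly empty, and was at -0.09 without that library and at -0.70 with it. Its star arm was steady, at 2966, 2368 and 2835 CPM in DMSO and 3848, 3325 and 3523 CPM in TCDD (log2 fold change 0.39, SE 0.24), and higher in each TCDD library. miR-34, a p53 target in mammals, was at -0.22 (SE 0.89), also with TCDD replicate 2 the lowest (0.30 without it), and miR-21 at -0.14 (SE 0.77), with TCDD replicate 3 the lowest (0.37 without it). Of 10 tested arms 5 were positive, and 0 were called. Their median of -0.06 became 0.15 and 0.24 under upper quartile and total count scaling.

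A few arms outside these lists had small p-values. miR-1388 was rare but even, at 8.66, 6.68 and 5.84 CPM in the DMSO libraries and 17, 17 and 27.9 CPM in the TCDD libraries (log2 fold change 1.54, SE 0.36, edgeR adjusted p = 0.171, DESeq2 adjusted p = 0.00106). miR-489 was at 6.15, 24.7 and 27.2 CPM in DMSO and 104, 28.4 and 84.2 CPM in TCDD (log2 fold change 1.90, SE 0.59), and miR-723* at 17, 16.5 and 12.3 CPM in DMSO and 2.83, 4.46 and 4.39 CPM in TCDD (log2 fold change -1.96, SE 0.55). In each of the 3 the groups did not overlap, as in 21.5% of all arms, though the gap for miR-489 was narrow, between DMSO replicate 3 and TCDD replicate 2. These arms were named for their small p-values in the same libraries, so the lack of overlap adds no support. The major arm of the miR-723 hairpin overlapped (-0.73 (SE 0.42)). miR-737 was at 28.8, 33.4 and 26.3 CPM in DMSO and 4.89, 8.11 and 17.4 CPM in TCDD (log2 fold change -1.52, SE 0.62) and miR-135b at 7775, 5314 and 5286 CPM in DMSO and 1732, 3542 and 4739.8 CPM in TCDD (log2 fold change -0.88, SE 0.36), both lower in each TCDD library on the TMM scale. Without that scaling the groups of miR-135b overlap. miR-29a-1*, opposite the collagen regulator miR-29a, was at 10.6, 7.46 and 12.3 CPM in DMSO and 21.6, 26.7 and 20.8 CPM in TCDD (log2 fold change 1.18, SE 0.48), with miR-29a itself at 0.07 (SE 0.31).

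The arms of a hairpin were then set against each other, since their ratio within a library does not depend on how libraries are scaled. In 172 hairpins both arms could be tested, and in 114 of them (66.3%) the star arm's part was larger in TCDD embryos. It was larger without overlap in 26 hairpins (15.1%) and smaller in 5 (2.91%). Of the 26, 20 combined a negative value of the major arm with a positive value of the star arm. Picking hairpins by a higher ratio itself favours that combination, so the count is no separate result. The arms' log2 fold changes were hardly related, with Pearson's r of 0.09 and Spearman's rho of 0.11 across 172 hairpins, which share the libraries and are not replicates. Over all tested arms the median size of a log2 fold change, 0.36, was below the median standard error, 0.46. Such error lowers a correlation, and some major arms are merged over several hairpins. These values therefore cannot show whether the arms of a hairpin change independently. Both arms had the same sign in 90 hairpins (52.3%), while 59 had a negative major and a positive star arm and 23 the reverse.

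The 1 hairpin called in the arm ratio (0.581% of 172) was miR-216b, which is known from the exocrine pancreas. Its major arm stood at 359, 41.6 and 210.2 CPM in the DMSO libraries and 3.34, 2.03 and 2.86 CPM in the TCDD libraries, and the star arm miR-216b-1* at 4.47, 0.786 and 0.649 CPM in DMSO and 4.37, 7.70 and 0.764 CPM in TCDD. The major arm was nearly lost in all 3 TCDD libraries, and the star arm was rare everywhere. The star arm held 1.23, 1.85 and 0.308% in the DMSO libraries and 56.7, 79.2 and 21.1% in the TCDD libraries of the counts of these arms (log2 change of the ratio 6.90 (SE 1.18), edgeR adjusted p = 0.0213). In the TCDD libraries this rests on 13, 5 and 15 counts of the major and 17, 19 and 4 counts of the star arm. The major arm is merged from 2 hairpin copies, so this share is not that of a single hairpin. The star arm of the other copy, miR-216b-2*, had 29 counts over the 6 libraries and was not tested. Leaving out a library gave the arm ratio an adjusted p from 0.0071 to 0.114, and the call held without TCDD replicate 3 and ended without any of the other 5. The major arm alone had a log2 fold change of -6.17 (SE 1.33), called by DESeq2 (adjusted p = 1.51e-06) but not by edgeR (adjusted p = 0.159), with DMSO libraries that differed widely among themselves. The neighbours miR-216a and miR-217, from the same cluster, did not follow. miR-217 was at 542, 157 and 563 CPM in DMSO and 594, 776 and 12.2 CPM in TCDD (log2 fold change 0.13, SE 1.22), and miR-216a at 94.2, 74.6 and 148 CPM in DMSO and 139.9, 46.6 and 4.58 CPM in TCDD (log2 fold change -0.73, SE 1.03). Both overlapped, with TCDD replicate 3 far below the rest.

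Next in the arm ratio, by unadjusted p, came miR-19c, miR-153c, miR-19a, miR-141, miR-93, miR-219 and miR-19b, none of which passed, and 6 hairpins (3.49%) had an unadjusted p under 0.05. The star arm of miR-19c held 0.202, 0.165 and 0.123% in the DMSO libraries and 0.485, 0.503 and 1.26% in the TCDD libraries of its hairpin (log2 change 2.08 (SE 0.59), edgeR adjusted p = 0.362). For miR-153c the part was 4.66, 1.68 and 0.871% in the DMSO libraries and 8.96, 6.32 and 18.2% in the TCDD libraries (2.55 (SE 0.84)), and for miR-141 1.25, 0.923 and 0.990% in the DMSO libraries and 5.01, 3.78 and 1.90% in the TCDD libraries (1.70 (SE 0.70)). In all 3 each TCDD library lay above each DMSO library. miR-219, of oligodendrocytes, is among 23 hairpins whose star arm was the more abundant, with 64.3, 79.7 and 62.8% in the DMSO libraries and 93.4, 85.1 and 86.5% in the TCDD libraries in miR-219-3* (1.81 (SE 0.87)). Its major arm is merged from 3 hairpin copies and miR-219-3* comes from 1, so this share is not that of a single hairpin. For miR-93 the change was 4.27 (SE 1.91) but rested on TCDD replicates 2 and 3, where the major arm was nearly lost.

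In 3 of 172 hairpins the arms lay apart in opposite directions on the TMM scale, miR-141, miR-135b and miR-199, with the major arm lower and the star arm higher. Among all tested arms on that scale, 14.9% of major arms lay lower and 6.7% higher, and 14.4% of star arms lay higher and 6.94% lower. Without that scaling the groups of these 3 major arms overlap. miR-135b* was at 282, 446 and 359 CPM in DMSO and 560.5, 664 and 543 CPM in TCDD (log2 fold change 0.70, SE 0.84), the reverse of miR-135b. In 4 of 172 hairpins both arms lay apart in the same direction on the TMM scale, miR-20a and miR-451 lower and miR-23a and miR-454b higher. Without that scaling the groups of the major arm miR-451 overlap. For the major arm of miR-23a this holds for the row of miR-23a-1 alone. miR-454b, which has the seed of miR-130 and miR-301 and lies beside them, was at 24.9, 134 and 23 CPM in the DMSO libraries and 141, 688 and 2800.0 CPM in the TCDD libraries (log2 fold change 4.32, SE 1.65, edgeR adjusted p = 0.589, DESeq2 adjusted p = 0.0437). The values spread over an order of magnitude within the TCDD group, and the gap to DMSO replicate 2 was narrow. Without TCDD replicate 3, the highest, the log2 fold change was 2.78. Its paralog miR-454a overlapped, at 12.6, 62.1 and 23.4 CPM in DMSO and 15.4, 76.2 and 499 CPM in TCDD (log2 fold change 2.60, SE 1.60). The star arm miR-454b* was at 134, 203 and 290.0 CPM in DMSO and 300.2, 421 and 395 CPM in TCDD (log2 fold change 0.83, SE 0.36). The neighbouring star arms miR-130b* (0.59 (SE 0.29)) and miR-301b* (0.63 (SE 0.30)) were also higher in each TCDD library, while the major arms miR-130b (0.12 (SE 0.35)) and miR-301b (-0.02 (SE 0.24)) overlapped. Over the 16 arms of miR-130, miR-301 and miR-454, 9 were positive, 5 lay higher without overlap (all arms 10.7%), 0 were called and the median was 0.16.

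Star arms as a whole took a larger part of the counts in TCDD embryos. Their share was 7.03, 7.27 and 7.06% in the DMSO libraries and 10.4, 10.1 and 10.9% in the TCDD libraries. The difference of means was 3.37 percentage points (10.5 ± 0.407% against 7.12 ± 0.132%, SD, n = 3 each; two-sided exact permutation p = 0.10, the smallest that 3 against 3 can give). At 36 hpf the share was 7.37, 6.80 and 8.50% in DMSO and 7.45, 6.93 and 8.55% in TCDD libraries, and the difference between the ages was not tested. Of the net gain at 60 hpf, 49.2% lay in miR-130b*, miR-199-2* and miR-140*. Without these 3 arms the mean share was 5.20% in DMSO and 7.07% in TCDD embryos. In the same libraries the miR-19 major arms took 8.65 to 12.4% of the counts in DMSO and 0.678 to 6.66% in TCDD embryos, and their part in the star share was not tested.

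**Figure D4:**
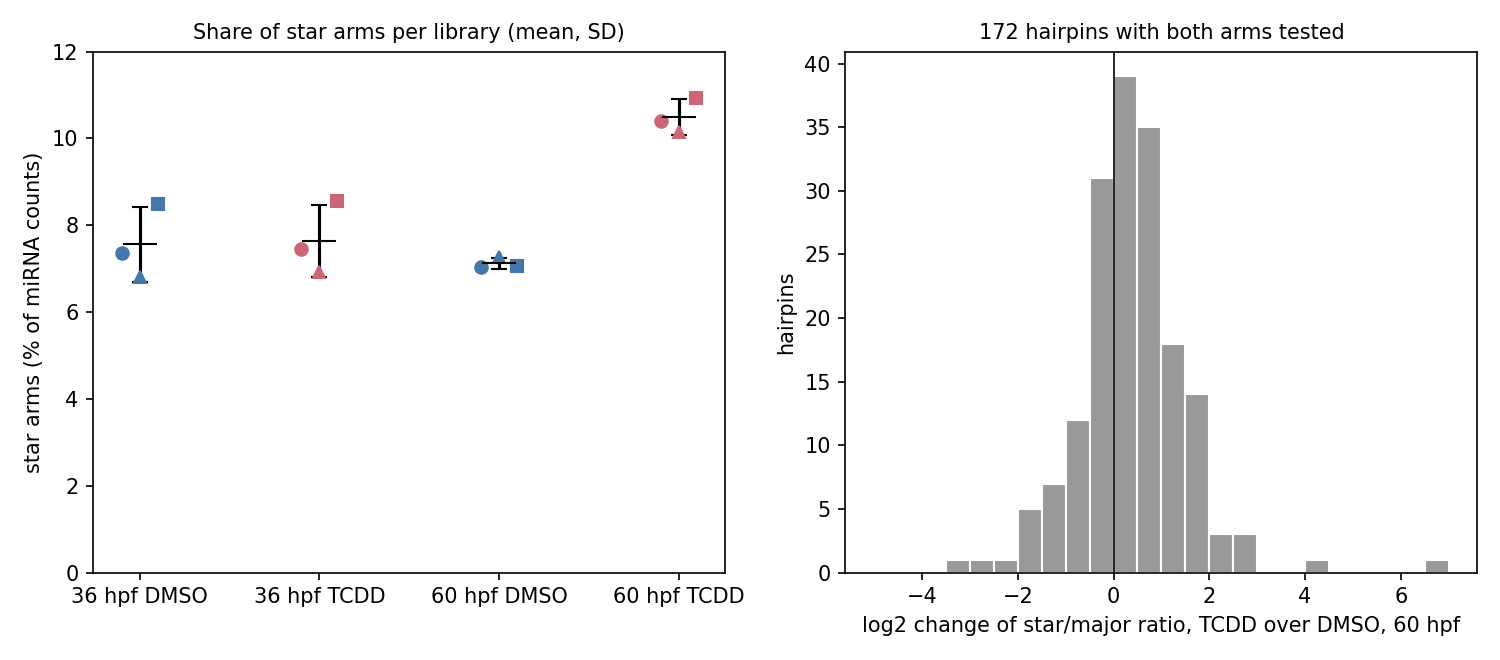
Left, star arms as a percentage of miRNA counts in each of the 12 libraries (points; bars give the group mean and SD, n = 3), and right, the log2 change of the star to major ratio over 172 hairpins, TCDD against DMSO at 60 hpf. The 60 hpf TCDD libraries lie at 10.1 to 10.9% and all others at 6.80 to 8.55%, and most hairpins lie to the right of 0.

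The split by arm can also be described for single arms, from the same counts as the shares and ratios above, so it is no separate result. Since the values of all arms were centred on 0, more positive star arms leave fewer positive major arms. Of 216 star arms 130 (60.2%) had a positive value and of 194 major arms 75 (38.7%), with medians of 0.11 and -0.12. The signs and medians of this paragraph hold on the TMM scale. Upper quartile and total count scaling moved the median of all arms to 0.26 and 0.31, more than the size of the major arms' median. Whether major arms fell or star arms rose is therefore not settled by these signs, only that major arms lay below star arms. Star arms lay higher without overlap in 31 (14.4%) and lower in 15 (6.94%), major arms higher in 13 (6.7%) and lower in 29 (14.9%). The abundant major arms carried most of the latter. Of 92 major arms with a mean of 1000 CPM or more, 19 lay lower and 2 higher without overlap (median -0.16), while of 14 star arms as abundant 0 lay lower and 3 higher (median 0.20). Below 100 CPM the major arms had medians of -0.09 (41 arms of 10 to 100 CPM) and 0.24 (5 rarer arms).

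Counts were last summed over families, with the arms kept apart, since paralogs of near-identical sequence may share reads. Of 231 family sums edgeR called 0, with 18 (7.79%) at an unadjusted p under 0.05, and DESeq2 called 4 (1.73%): miR-1388 and miR-489 were higher, and miR-153 and miR-723* lower. The smallest edgeR p-values after these belonged to miR-142 (-0.85 (SE 0.29)), miR-146 (-0.99 (SE 0.35)), the star arms of miR-24 (0.93 (SE 0.36)), miR-454 (3.95 (SE 1.55)), the star arms of miR-301 (0.80 (SE 0.32)) and miR-19 (-1.57 (SE 0.63)). The second members of these families, miR-142b (-0.70 (SE 0.50)) and miR-146b (-0.87 (SE 0.47)), overlapped, as did miR-301c* (0.96 (SE 0.55)). The star arms of miR-24 summed to 62.1, 55.5 and 109 CPM in DMSO and 196, 114 and 124 CPM in TCDD, higher in each TCDD library. Summed over its 5 members the miR-27 family was not among them (edgeR adjusted p = 0.757), at 239.7, 251 and 313 CPM in DMSO and 214, 643 and 535 CPM in TCDD (log2 fold change 0.79, SE 0.47) with overlapping groups. On the TMM scale the sum of TCDD replicate 1, where miR-27e was highest, was below that of every DMSO library. The groups did not overlap in 49 family sums (21.2%), 25 higher (10.8%) and 24 lower (10.4%).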

How the data were processed

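Small RNA of whole embryos was sequenced in 12 libraries, and the 6 of 60 hpf were compared. The labels' protocols name the SREK library kit and a SOLiD V3 sequencer. Each deposited table holds raw counts of 1 library, and features that a table lacks were set to 0. The submitters' processing notes name edgeR, with no version or role. The build, annotation, aligner and counting rule were not given in the sources used here, and no coordinates or sequences are printed. Rows with Ensembl identifiers took 1.20% to 1.65% of the counts at 60 hpf and were left out.

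Copies of a mature name and arm were merged where their total reached 80% of that of the most abundant copy, which was the one counted. Copies below that share were kept as separate arms. edgeR 4.0.16 (R 4.3.3) was run on arms passing filterByExpr (minimum count 10, total 15), with TMM scaling, 4 group means over 12 libraries and the robust quasi-likelihood test. The arm ratio used both arms as columns with a block per library, and families were summed by the number in the name. A major arm merged over several hairpins was set against the most abundant of their star arms. Adjusted p is Benjamini-Hochberg over all features tested, and arms under 0.05 count as called. A standard error is the size of the log2 fold change divided by the root of F. Depth was 2007639 to 4210840 counts per library, where 1 count is worth 0.237 to 0.498 CPM before TMM scaling. Settings also tried were other scalings, filters, sums of copies, DESeq2 1.42.0, limma 3.58.1 (voom), the exact and likelihood ratio tests, a replicate block, 60 hpf libraries alone and each library left out. The fit was tested on simulated counts.

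Neighbouring hairpins were taken from a RefSeq table of assembly GRCz12tu, in which 322 of 352 hairpins were found by name. The members, lists and tests were chosen with earlier results of these data known. Arms were named by rule: calls by any tool with their family, the 20 smallest p-values, the 5 most abundant arms, the 8 hairpins and 10 families of smallest p, and up to 4 abundant arms per list. Further members of lists, and the hairpins whose arms both lay apart, were named after their values were seen.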

Additional observations from a re-analysis of the deposited data

How the results depend on the processing

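The count of arms called, 1, was 0 when the libraries of 60 hpf were fitted alone, 2 with a replicate block (miR-27e and miR-19c, both adjusted p = 0.0316), 10 with DESeq2, 5 with edgeR's exact test and 5 with its likelihood ratio test, and 0 to 1 with a library left out. It stayed 1 under the other scalings, filters, sums of copies and limma-voom. The adjusted p of miR-27e ran from 5.15e-17 (DESeq2) to 0.148 (without DMSO replicate 1), with log2 fold changes from 2.17 to 2.56. The count of hairpins called in the arm ratio, 1, was 0 with the stricter filter and 0 with the 60 hpf libraries alone, and 0 to 1 with a library left out, with miR-216b at an adjusted p of 0.210 in the 60 hpf libraries alone. Family sums gave 0 calls, but 1 with total count scaling and 4 with DESeq2. The difference in share of star arm counts per library at 60 hpf was 3.15 to 3.55 points with a library left out and 2.99 with copies summed. Among the 45 named miRNAs, hairpins and families recomputed under every setting, signs changed for 3 abundant miRNAs near 0, and sign changes of other miRNAs with a library left out stand beside their values. miR-203b was at 0.11 (upper quartile scaling) and 0.13 (total count scaling). miR-205 was at 0.042 (RLE), 0.24 (upper quartile), 0.31 (total count), 0.043 (no filter), 0.052 (stricter filter), 0.046 (60 hpf alone), 0.10 (replicate block), 0.12 (sum of copies), 0.042 (DESeq2), 0.046 (limma-voom) and -0.30 to 0.17 with a library left out. miR-206 was at -0.059 with the replicate block and -0.12 to 0.18 with a library left out. The cause of these shifts was not tested.

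The labels number replicates alike in each group. Deviations from the group means correlated at 0.13, 0.00 and -0.10 between libraries of the same number, and only replicate 1 of each group correlated best with its own number. With 3 libraries per group this cannot show whether the numbers pair the libraries. With the replicate block the arm ratio had 1 call, family sums 0, and the star share an exact sign-flip permutation p of 0.25, the smallest that 3 pairs allow. Sums by shared seed were not run. The median standard error over arms was 0.46 on the log2 scale, which holds both the spread between libraries and counting error.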

Other observations

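Copies of miR-23a are counted on 3 rows, and the row of miR-23a-1, the hairpin beside miR-27e, could be set against that of miR-23a-2. The ratio of their counts was 0.940, 0.905 and 0.933 in the DMSO libraries and 1.27, 1.16 and 1.17 in the TCDD libraries, from 2401 to 8405 counts of miR-23a-1. All TCDD ratios lay above all DMSO ratios. Of 55 sets of copies with enough counts, 8 (14.55%) did not overlap between the groups, and the gap of group means exceeded this one (1.293-fold) for miR-10b* alone (1.604-fold). For miR-24 the ratio of the row of miR-24-4, also beside miR-27e, to that of miR-24-1 was 1.06, 1.09 and 1.09 in DMSO and 1.09, 1.08 and 1.09 in TCDD libraries. This comparison was chosen after the values were seen, and has no test.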
